A study of Homo sapiens with 4 samples.

Results

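The genes described here are the 4 STEAP metalloreductases (STEAP1, STEAP2, STEAP3 and STEAP4) and 6 genes of iron handling in enterocytes (TFRC, SLC11A2, SLC40A1, FTH1, FTL and HMOX1). They were taken from the count table by symbol. STEAP4 was chosen by its counts in this comparison, which went from near 0 to clearly above it after IFNγ, and the 9 others were added as its family and as iron genes of the enterocyte. The table listed 37515 Ensembl genes, all 10 members had a row, and all 10 were among the 14820 genes with enough counts to be tested. RNA-seq was performed on 4 libraries of Caco-2, a human colorectal carcinoma cell line that differentiates towards an enterocyte when kept confluent. The cells were grown on transwell inserts in MEM for 15 days and then given IFNγ at 60 ng/ml from the basal side for 3 h (2 libraries), or were left unstimulated and taken at 0 h (2 libraries). IFNγ is a cytokine of T and NK cells. Both groups are labelled wild type, and no other agent is named. The 3 h cells differ from the 0 h cells in IFNγ and also in the hours that passed, and these cannot be told apart. The labels do not say whether replicates were separate cultures, so the p-values measure the spread between libraries, which may be technical.

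Iron in the gut lumen and in endosomes is mostly ferric and has to be reduced before it can cross a membrane. STEAP proteins are membrane reductases that take electrons from NADPH and pass them through a haem to ferric iron or cupric copper, and STEAP1 lacks the NADPH-binding part that the other family members have. Reduced iron enters through the divalent metal transporter SLC11A2 (DMT1), iron on transferrin enters through the transferrin receptor TFRC, ferritin (FTH1 and FTL) stores it, ferroportin (SLC40A1) exports it at the basolateral side, and haem oxygenase 1 (HMOX1) releases it from haem.

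The libraries held 7171455 to 10365346 counts, so that 1 CPM, a normalized count scaled to library size by TMM, stood for 7.14 to 10.28 counts. A gene was called where its adjusted p-value was under 0.05 and its level moved by over 1 on the log2 scale. Epithelial markers were present in every library, with 102 to 21722 counts for each of the 10, and their sum was 7346 and 7695 CPM before and 8997 and 9601 CPM after IFNγ. Of these markers CDX2 was called higher (log2 fold change 1.2) and SI lower (-1.13), and their part in the results was not tested. Of the markers of other cell types 8 of 9 had a row, 5 were tested and 0 were called or had an adjusted p-value under 0.05. Their summed level was 112 to 204 CPM before and 149 to 191 CPM after IFNγ, mostly COL1A1, a fibroblast collagen with 638 to 1842 counts. The leukocyte marker PTPRC was at 0 in 3 libraries and had 2 counts in the other. The myeloid markers CD14 (34 to 65 counts, log2 fold change 0.82, edgeR unadjusted p = 0.0375) and CSF1R (57 to 101 counts, 0.38) and the T cell marker CD3E (4 to 10 counts) were higher in both IFNγ libraries without overlap. The part of these markers in the results was not tested. Of 10 IFNγ-induced genes used to check the labels, 8 were called higher. Across 14445 genes, transcripts richer in GC tended to have higher log2 fold changes (Spearman rho = 0.438), a description over genes that share the same 4 libraries. The part of this trend in the results was not tested, and each member is also given with the trend removed where its value moved.

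STEAP4 (ENSG00000127954, chromosome 7 of GRCh37, 87900207 to 87936209, minus strand) had 0 counts in both unstimulated libraries. After 3 h of IFNγ it had 87 counts in replicate 1 (95% Poisson interval 69.7 to 107.3) and 64 in replicate 2 (49.3 to 81.7). These counts were 8.46 and 8.73 CPM, a mean of 8.60 ± 0.191 (SD, n = 2). The groups did not overlap, and the IFNγ libraries differed by less than their counting intervals. A count of 0 was taken to allow up to 3 counts, which is 0.292 and 0.42 CPM in the 2 unstimulated libraries. The measured level of the lower IFNγ library was 20.1-fold above the larger of these limits. This fold leaves out the interval of the IFNγ count. The 95% Poisson interval of a count of 0 reaches 3.7 counts, or 0.359 and 0.517 CPM in the unstimulated libraries, against which the fold is smaller. Intervals and limits cover counting error only. This difference is the one by which STEAP4 was chosen, and no test is attached to it. A long noncoding gene on the opposite strand shares 7.0% of the exon bases of STEAP4 (ENSG00000228113). That gene had 11 and 4 counts in unstimulated cells and 4 and 3 after IFNγ, so it did not gain counts with STEAP4.

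Because STEAP4 went from no counts to clear counts, its proximal promoter is shown, from the RefSeq table of GRCh38.p14. The window is the 250 bases before the start of transcription, chr7:88306895-88307144 on the minus strand, written 5′ to 3′. The capitals mark the match to the gamma-activated sequence (GAS), a motif of IFNγ-responsive promoters, TTCNNNGAA, which begins 96 bases before the start.
STEAP4: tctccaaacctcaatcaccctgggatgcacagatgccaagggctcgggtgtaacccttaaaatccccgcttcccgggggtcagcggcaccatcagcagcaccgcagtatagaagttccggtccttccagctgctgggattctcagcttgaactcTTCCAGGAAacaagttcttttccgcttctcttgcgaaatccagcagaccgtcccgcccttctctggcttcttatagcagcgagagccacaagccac

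The letters TTCNNNGAA were found in 7.66% of all 35116 promoter windows of the table, which end 50 bases after the start, searched on both strands. Windows of 8 of the 10 members were in the table, some genes having several, and those of FTH1 and HMOX1 were not. STEAP4 was the 1 member of these 8 with a GAS match. The same windows were searched for the interferon-stimulated response element (GAAA, any 2 bases, GAAA, in 3.57% of all windows), the NFκB letters (GGGA, any base, TTTCC, in 0.558%), the antioxidant response element TGACNNNGC (13.35%) and the core hypoxia response element ACGTG (21.41%). STEAP4 held none of these, 1 of the SLC11A2 windows held the interferon-stimulated element, and TFRC and FTL each held ACGTG. A match is a run of letters and does not show that a factor binds there.

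The other STEAP genes, unlike STEAP4, had counts in every library. Their changes were not tested against each other. STEAP2 (chromosome 7 of GRCh37, 89796904 to 89867451), a reductase of the Golgi and the plasma membrane, had 534 and 372 counts in unstimulated cells and 288 and 178 after IFNγ. In normalized units these were 52.0 and 52.1 CPM before and 28 and 24.3 CPM after, so that the groups were far apart and the mean was 1.98-fold lower after IFNγ. Its log2 ratio, like every fold change here IFNγ over unstimulated, was -0.99 (edgeR adjusted p = 0.00453, standard error 0.141, 95% interval -1.32 to -0.66). Adjusted p-values come from edgeR's quasi-likelihood fit and are corrected over all tested genes. In bulk RNA, fewer cells expressing a gene and less RNA per cell cannot be told apart. The transcript of STEAP2 has a GC content of 36.6%, and with the GC and length trend removed its log2 fold change was -0.42 (edgeR adjusted p = 0.061). It was -1.11 without IFNγ replicate 1, the 1 omission that took it past 1, and -1.03 with scaling by library size only.

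STEAP1 (chromosome 7 of GRCh37, 89783770 to 89794143) lies beside STEAP2 on the same strand. It had 18.5 and 19.1 CPM in unstimulated cells and 17.7 and 17.1 CPM after IFNγ. The groups were separate, but by less than 1 CPM, and the log2 fold change was -0.11 (edgeR adjusted p = 0.657, 95% interval -0.47 to 0.25). The sign turned to 0.09 with the GC and length trend removed. Its near-identical copy STEAP1B had 1 count in all 4 libraries together, although reads that map to both genes may have been lost from both. STEAP3, the endosomal reductase that serves transferrin iron in erythroid cells, had 11.6 and 11.2 CPM before and 14.3 and 16.1 CPM after IFNγ. Both IFNγ libraries were above both unstimulated ones, with a log2 fold change of 0.41 (edgeR adjusted p = 0.148, 95% interval -0.01 to 0.83), which did not pass the test and was 0.17 with the trend removed. An antisense gene, STEAP3-AS1, shares 11% of its exon bases and had 0, 0, 6 and 1 counts in the same order.

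**Figure D1:**
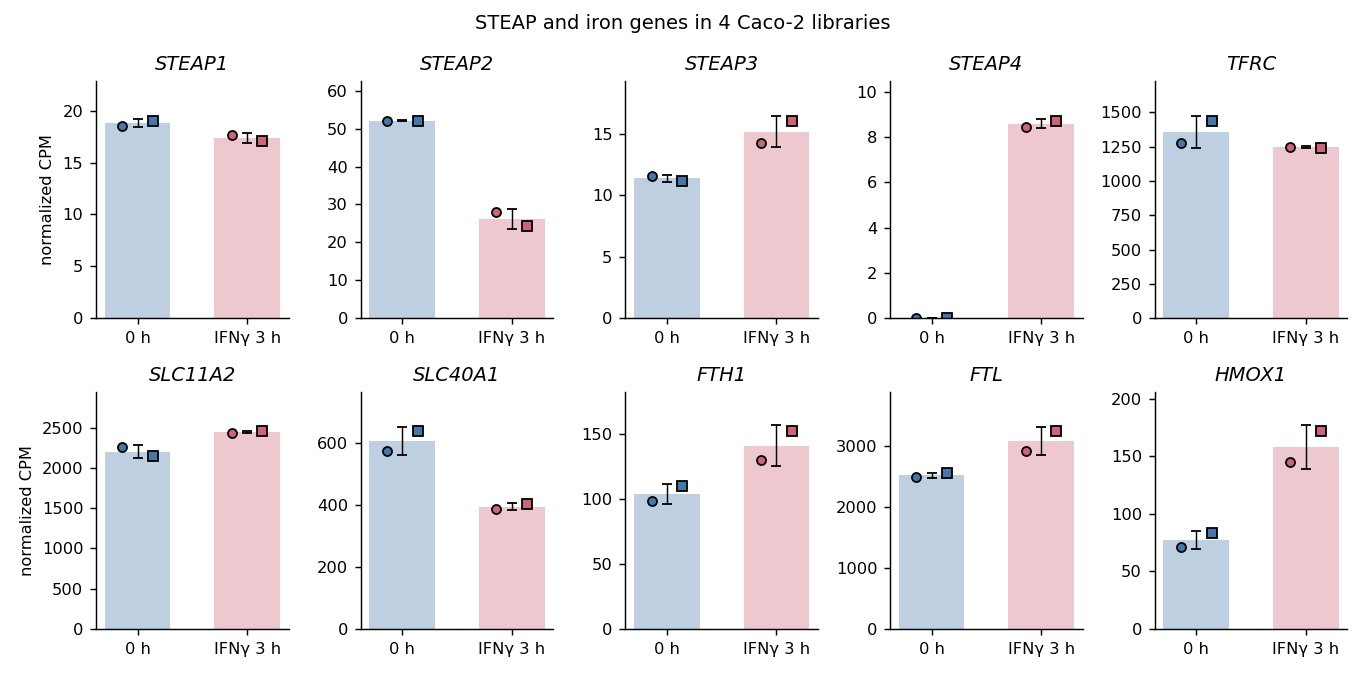
Level in CPM (vertical axes, linear and from 0, a scale of its own in each panel) of the 10 genes in unstimulated Caco-2 cells at 0 h and after 3 h of IFNγ. Bars are means, error bars are SD (n = 2), circles are replicate 1 and squares replicate 2. STEAP4 is at 0 before and at 8.60 CPM after IFNγ, STEAP2 and SLC40A1 are lower after IFNγ, and HMOX1 is higher.

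Levels of different genes were compared per kilobase of the canonical transcript. In unstimulated cells STEAP1 was the highest of the family at 15.4 ± 0.321 CPM per kb (SD, n = 2), followed by STEAP2 at 7.45 ± 0.0123 and STEAP3 at 2.68 ± 0.0629, and neighbouring genes did not overlap. After IFNγ STEAP1 stood at 14.3 ± 0.375 CPM per kb. STEAP2 at 3.74 ± 0.377 and STEAP3 at 3.57 ± 0.299 CPM per kb overlapped. STEAP4 was the lowest, at 0.861 ± 0.0191 CPM per kb. The level of STEAP4 per kb was 0.231 to 0.252 times that of STEAP3 in the same library.

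The summed STEAP level was 25.3 and 25.7 CPM per kb before IFNγ and 22.7 and 22.1 after it. The share of STEAP2 in this sum went from 29.4% and 29.0% to 17.6% and 15.7%, and that of STEAP4 from 0% to 3.73% and 3.95%. The ratio of STEAP2 to STEAP1 within a library was 0.491 and 0.477 before and 0.276 and 0.249 after IFNγ. By these levels the family held a smaller part of STEAP2 and a small part of STEAP4 in both IFNγ libraries, with STEAP1 at 59.9% to 63.9% throughout. The shares were not corrected for the GC and length trend. With that trend removed the log2 fold change was -0.42 for STEAP2 and 0.09 for STEAP1.

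**Figure D2:**
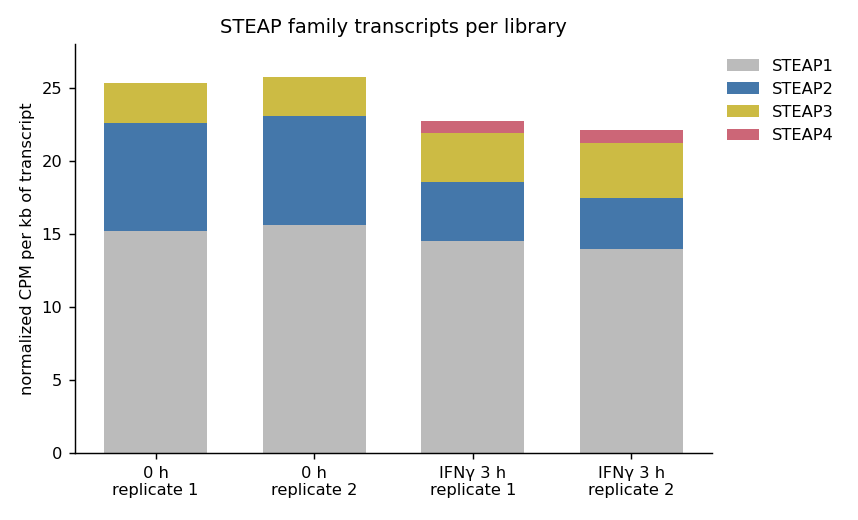
Level of each STEAP gene per library, stacked (vertical axis, CPM per kb of canonical transcript; horizontal axis, the 4 libraries). The STEAP2 segment shrinks from 7.45 to 3.74 CPM per kb on average, and a STEAP4 segment of 0.861 CPM per kb appears in the IFNγ libraries only.

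For iron entry, TFRC (chromosome 3 of GRCh37, 195739382 to 195809024) had 1277 and 1440 CPM in unstimulated cells and 1250 and 1239 CPM after IFNγ. The IFNγ libraries were slightly below the unstimulated ones, by less than the gap between the 2 unstimulated libraries. The log2 fold change was -0.13 (edgeR adjusted p = 0.456, 95% interval -0.38 to 0.13), and its sign turned to 0.16 with the GC and length trend removed. SLC11A2 (chromosome 12 of GRCh37, 51373184 to 51422349) had 2264 and 2145 CPM before and 2440 and 2458 CPM after, a log2 fold change of 0.15 (edgeR adjusted p = 0.329, 95% interval -0.09 to 0.39). With the trend removed the value was 0.30 (edgeR adjusted p = 0.0799). Counts per gene do not separate the SLC11A2 isoforms that differ at their ends.

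Ferroportin, SLC40A1 (chromosome 2 of GRCh37, 190425316 to 190448484), is the known cellular exporter of iron. It had 5899 and 4550 counts in unstimulated cells and 3966 and 2943 after IFNγ, which were 574 and 637 CPM before and 386 and 402 CPM after. The groups were well apart, and SLC40A1 fell by 0.62 on the log2 scale (edgeR adjusted p = 0.00926, standard error 0.111, 95% interval -0.88 to -0.36), 1.54-fold. With the GC and length trend removed the log2 fold change was -0.42 (edgeR adjusted p = 0.0246). Within a library, the level of SLC11A2 per kb was 3.18 and 2.71 times that of SLC40A1 before IFNγ and 5.10 and 4.93 times after it.

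Ferritin is a shell of heavy (FTH1) and light (FTL) chains. FTL (chromosome 19 of GRCh37, 49468566 to 49470136) had 2480 and 2546 CPM before and 2917 and 3238 CPM after IFNγ, a log2 fold change of 0.29 (edgeR adjusted p = 0.0968, 95% interval 0.04 to 0.54). FTH1 (chromosome 11 of GRCh37, 61727190 to 61735106) had 98.8 and 109.8 CPM before and 130 and 152 CPM after, a log2 fold change of 0.44 (edgeR adjusted p = 0.0543, 95% interval 0.13 to 0.74). Both chains were thus higher in both IFNγ libraries, but neither passed the test after adjustment. FTH1 passed without IFNγ replicate 1 (edgeR adjusted p = 0.0327), with upper quartile scaling (0.0364), under a filter of 10 counts per library (0.045) and with no filter (0.0148). It had 0.53 without unstimulated replicate 2 (0.0573), 0.36 without unstimulated replicate 1 (0.229) and 0.30 without IFNγ replicate 2 (0.279), and 0.31 with the GC and length trend removed (0.102). FTL passed with no filter (edgeR adjusted p = 0.0215) and had 0.20 without IFNγ replicate 2. The p-values of the fit with no filter are smaller by construction. With a replicate block both chains passed (edgeR adjusted p = 0.00531 for FTH1 and 0.0037 for FTL), a pairing that rests on the replicate number alone. FTL had a log2 fold change of 0.08 with the GC and length trend removed.

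The level of FTH1 itself is uncertain. FTL stood 29.3 to 34.7 times above FTH1 per kb. The exons of BEST1 on the opposite strand overlap 63.2% of the FTH1 exon bases, and the use of strand in counting is not given in the sources used here. BEST1 had 13 to 32 counts. Of 19 FTH1 pseudogene rows, 17 had counts, and together they held 10.4% to 19.0% of the sum of FTH1 and its pseudogenes, against 2.62% to 2.72% for FTL and its pseudogenes. How reads shared by these copies were counted was not tested.

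The ferritin chains, SLC40A1 and TFRC share a sequence feature. They were chosen as genes of iron handling, so finding an element of iron regulation among them is not an independent result. Iron regulatory proteins bind a hairpin, the iron-responsive element, whose place in a transcript is known to matter: a bound element near the 5′ end blocks translation, and bound elements in the 3′ UTR protect the transcript from decay. GENCODE transcripts were searched for a C, 5 stem bases, the loop CAGTG with A, C or T after it, and 5 bases that pair with the stem (Watson-Crick or G with T). Such a site was found in 1.63% of 20175 protein-coding genes and in 4 of the 10 members. An element that departs from this pattern is missed, so a member without a match may still hold one. Of the genes in the iron and copper lists used below, SLC39A14, TF and ATP7B also had a match. The place of these matches in their transcripts is not reported here. The 17-base sites are given 5′ to 3′ as DNA letters on GRCh37, since matches to this element are what these members share, with the loop in capitals.
FTH1, 5′ UTR, chr11:61735052-61735068, minus strand: cttcaaCAGTGCttgga
FTL, 5′ UTR, chr19:49468598-49468614, plus strand: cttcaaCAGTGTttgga
SLC40A1, 5′ UTR, chr2:190445393-190445409, minus strand: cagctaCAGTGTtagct
TFRC, 3′ UTR, chr3:195777856-195777872, minus strand: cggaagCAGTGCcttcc
TFRC, 3′ UTR, chr3:195777452-195777468, minus strand: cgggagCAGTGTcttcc
TFRC, 3′ UTR, chr3:195777387-195777403, minus strand: cggagaCAGTGAtctcc
TFRC, 3′ UTR, chr3:195777340-195777356, minus strand: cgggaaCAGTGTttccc

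TFRC held 4 such sites in its 3′ UTR, and the other 3 genes held 1 each in the 5′ UTR. The 3 genes with a 5′ site did not move alike, with log2 fold changes of 0.44 for FTH1, 0.29 for FTL and -0.62 for SLC40A1. The site was in 3 of 7 annotated transcripts of SLC40A1, 10 of 12 of FTH1 and 1 of 1 of FTL. Counts per gene do not separate transcripts with the site from those without it. TFRC, with the 3′ sites, had -0.13. RNA counts do not measure translation, which is what the 5′ element is known to control. Within a library the ratio of FTL to TFRC per kb was 11.2 and 10.2 before IFNγ and 13.4 and 15.0 after it. This rise was not kept with the GC and length trend removed, where FTL had a log2 fold change of 0.08 and TFRC 0.16. Of the genes whose proteins bind the element, ACO1 (IRP1) had a log2 fold change of 0.09 (edgeR adjusted p = 0.642), and IREB2 (IRP2) fell by 0.82 (edgeR adjusted p = 0.00453, standard error 0.117), from 187 and 207 CPM to 116 and 108 CPM. With the GC and length trend removed IREB2 had a log2 fold change of -0.35 (edgeR adjusted p = 0.05).

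HMOX1 (chromosome 22 of GRCh37, 35776354 to 35790207), the inducible haem oxygenase, had 735 and 593 counts in unstimulated cells and 1489 and 1258 after IFNγ. These were 71.6 and 83.1 CPM before and 145 and 172 CPM after, so that each IFNγ library was well above both unstimulated ones. HMOX1 rose by 1.03 on the log2 scale (edgeR adjusted p = 0.00384, standard error 0.139, 95% interval 0.71 to 1.36). The value lies close to the fold change threshold of 1 and was 0.77 (edgeR adjusted p = 0.00728) with the GC and length trend removed. It was 0.93 without unstimulated replicate 1 and 0.89 without IFNγ replicate 2.

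**Figure D3:**
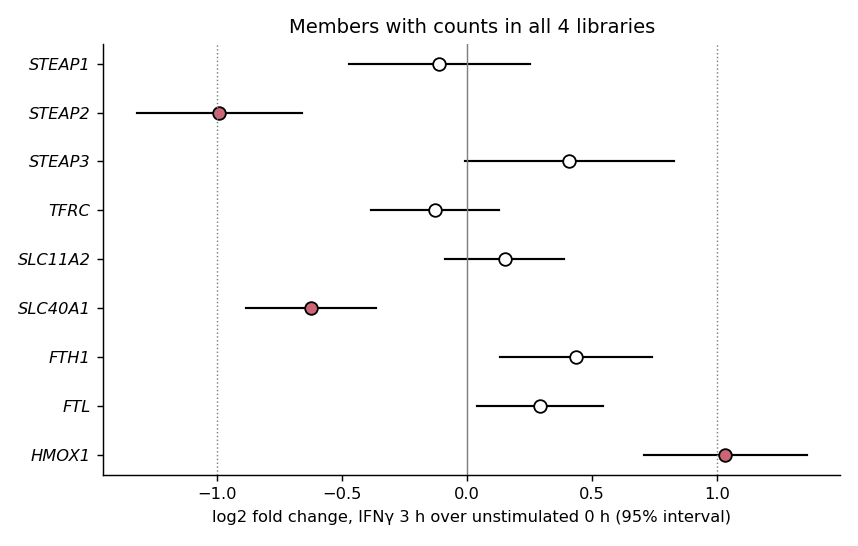
Log2 fold change of IFNγ 3 h over unstimulated 0 h (horizontal axis) with its 95% interval for the 9 genes other than STEAP4, which has 0 counts at 0 h. Filled points have an adjusted p-value under 0.05 (STEAP2, SLC40A1 and HMOX1), and dotted lines mark a log2 fold change of 1 in either direction.

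Of the 9 members other than STEAP4, HMOX1 was called higher, where 2.88% of all tested genes were (7.28% in either direction), and 0 were called lower, where 4.4% of all tested genes were. STEAP2 and SLC40A1 were the 2 with an adjusted p-value under 0.05 and a negative log2 fold change, where 11% of all tested genes had both. With DESeq2 0 were also called lower, and 2 had an unadjusted p-value under 0.05 and a negative value in edgeR. Nothing is read from these shares, since the genes were chosen with this comparison known. The 2 groups did not overlap for any of these 9 members, higher in 5 and lower in 4, while 31.6% and 30.8% of all tested genes were separate in these directions. The median log2 fold change of the 9 members other than STEAP4 was 0.15, and that of all tested genes was -0.007.

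Across all 10 genes the order of levels per kb in unstimulated cells was FTL (2886 CPM per kb), SLC11A2 (534), TFRC (271), SLC40A1 (182), FTH1 (86.7), HMOX1 (49.8) and then the STEAP genes, and no neighbours overlapped. After IFNγ FTL, SLC11A2 and TFRC kept the first places with 3533, 593 and 248 CPM per kb. SLC40A1 (118), FTH1 (117) and HMOX1 (102 CPM per kb) came next, each overlapping the following one. With the length of all annotated exons in place of the canonical transcript, TFRC came after SLC40A1 in both groups. After IFNγ STEAP3 then stood above STEAP2.

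The genes most like STEAP4 over the 4 libraries, by Euclidean distance of log2 CPM with a prior count of 2, were EDN3 (distance 1.17), OR2I1P (1.26), NNMT (1.83), LINC01749 (1.96) and GBP5 (2.00). EDN3 encodes endothelin 3, NNMT a nicotinamide methyltransferase and GBP5 an IFN-inducible guanylate-binding protein. None of them exceeded 3 counts in an unstimulated library. After IFNγ EDN3 had 63 and 40 counts, OR2I1P 109 and 78, NNMT 41 and 32, LINC01749 224 and 143, and GBP5 48 and 23. The likeness is a description over 4 libraries.

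Other genes of iron metabolism were taken from 4 lists of 47 genes in all, of which 46 had a row and 41 were tested. Of these, 9 had an adjusted p-value under 0.05 and were higher and 5 were lower, against 9.02% and 11% of all tested genes. Only FLVCR2 was called higher under the fold change threshold, where 2.88% of all tested genes were. With edgeR 0 were called lower, where 4.4% of all tested genes were. Of the 41, 7 had a negative value with an edgeR unadjusted p-value under 0.05, and DESeq2 called 0 lower. The median log2 fold change of the 41 was 0.11.

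Among uptake and export genes, 11 of 12 were tested and 3 passed. FLVCR2, a transporter of the family of the haem exporter FLVCR1, had 15.2 and 18.4 CPM before and 32.5 and 39.0 CPM after IFNγ, a rise of 1.10 on the log2 scale (edgeR adjusted p = 0.00636, standard error 0.175). It was 0.96 without unstimulated replicate 1 and 0.94 without IFNγ replicate 2. With the GC and length trend removed FLVCR2 had 0.937 (edgeR adjusted p = 0.00914), under the fold change threshold. FLVCR1 fell by 0.48 (edgeR adjusted p = 0.025), and its value was -0.25 with the GC and length trend removed. FLVCR1 did not pass without unstimulated replicate 1 (edgeR adjusted p = 0.115), unstimulated replicate 2 (0.0536) or IFNγ replicate 1 (0.0683). SLC46A1, the proton-coupled folate transporter that also carries haem, rose by 0.81 (edgeR adjusted p = 0.0045). The other tested genes of this list, which did not pass, ran from -0.78 for CYBRD1 to 0.31 for MCOLN1. CYBRD1 (duodenal cytochrome b), the ferric reductase of the duodenal brush border, had only 11 to 33 counts. HEPH (hephaestin), the ferroxidase that works with ferroportin, had 7664 to 12665 counts and a log2 fold change of 0.22 (edgeR adjusted p = 0.162).

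Among regulators 11 of 15 were tested. HAMP, the iron hormone hepcidin, had 0 counts in every library, which was taken to allow up to 3 counts in each. Besides IREB2, BACH1 fell and NFE2L2, KEAP1, EPAS1 and PCBP1 rose. BACH1, the haem-sensing repressor of HMOX1, had 193 and 201 CPM before IFNγ and 108 and 96.6 CPM after, a log2 fold change of -0.95 (edgeR adjusted p = 0.00302, standard error 0.116). It was -0.50 (edgeR adjusted p = 0.0153) with the GC and length trend removed. NFE2L2, which encodes the activator NRF2, had 75.1 and 86.4 CPM before and 149 and 133 CPM after, a log2 fold change of 0.81 (edgeR adjusted p = 0.00634, standard error 0.129). KEAP1, the adaptor that marks NRF2 for degradation, had 0.65 (edgeR adjusted p = 0.0177), and 0.36 (edgeR adjusted p = 0.116) with the trend removed. EPAS1, the hypoxia-inducible factor that acts on SLC11A2 and SLC40A1 in the gut, had 0.81 (edgeR adjusted p = 0.0077). PCBP1, an iron chaperone for ferritin, had 0.43 (edgeR adjusted p = 0.0416), and 0.19 with the trend removed. KEAP1 did not pass without unstimulated replicate 1 (edgeR adjusted p = 0.0806) or IFNγ replicate 2 (0.0513), and PCBP1 did not pass without unstimulated replicate 1 (0.173), unstimulated replicate 2 (0.0575) or IFNγ replicate 2 (0.222).

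Among 10 NRF2 targets, a list set beside HMOX1, 9 were tested and 1 passed and was higher, where 9.02% of all tested genes did. OSGIN1, an oxidative stress-induced growth inhibitor, rose from 33.8 and 36.4 CPM to 64.9 and 79.7 CPM, a log2 fold change of 1.04 (edgeR adjusted p = 0.00453, standard error 0.149), which was 0.73 with the GC and length trend removed, 0.98 without unstimulated replicate 1 and 0.87 without IFNγ replicate 2. NQO1, a quinone reductase, had -0.04 (edgeR adjusted p = 0.848, 95% interval -0.35 to 0.27). The tested targets other than OSGIN1 ran from -0.56 for ABCC2 to 0.43 for GCLM, and the median of the 9 was 0.07. SRXN1, with too few counts to be tested, had 4 and 1 counts before and 17 and 7 after IFNγ.

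In haem metabolism all 11 genes were tested and 3 passed. ALAS1, which starts haem synthesis, rose by 0.79 (edgeR adjusted p = 0.00619, standard error 0.125), and CPOX, a later step of the same route, fell by 0.81 (edgeR adjusted p = 0.00631, standard error 0.128). HMOX2, the constitutive haem oxygenase, rose by 0.84 (edgeR adjusted p = 0.0107, standard error 0.157) from 31.1 and 39.9 CPM to 61.7 and 65.4 CPM. The biliverdin reductases BLVRA and BLVRB, which act after haem oxygenase, had 0.32 and 0.22 and did not pass. Of the mitochondrial iron genes 8 of 9 were tested. The iron importers SLC25A28 (mitoferrin 2) and SLC25A37 (mitoferrin 1) were the 2 that passed, in opposite directions. SLC25A28 rose by 0.88 (edgeR adjusted p = 0.0137), and SLC25A37 fell by 0.60 (edgeR adjusted p = 0.033). Without unstimulated replicate 1 neither passed (edgeR adjusted p = 0.0507 and 0.181), and SLC25A37 also did not pass without IFNγ replicate 1 (0.0675) or in DESeq2 (0.0568).

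**Figure D4:**
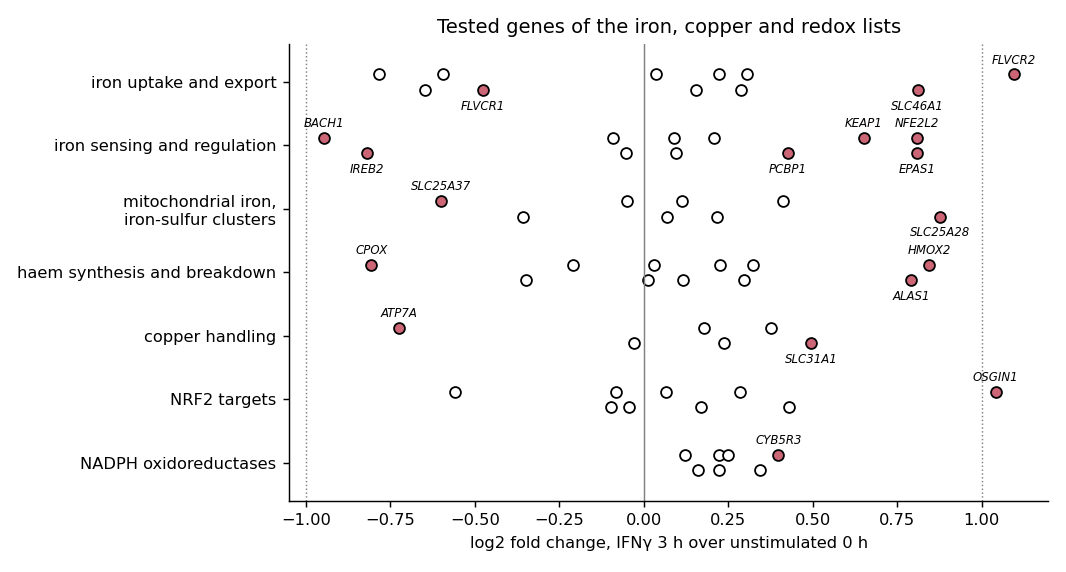
Log2 fold change of IFNγ 3 h over unstimulated 0 h (horizontal axis) for the tested genes of each list (vertical axis; points are spread for legibility). Filled and named points have an adjusted p-value under 0.05, and dotted lines mark a log2 fold change of 1 in either direction; FLVCR2 and OSGIN1 are the 2 beyond them.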

How the data were processed

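RNA-seq was analyzed for 4 Caco-2 libraries, prepared with a TruSeq RNA kit from mirVana RNA. The deposited table holds whole-number read counts for each Ensembl gene and library, neither normalized nor pooled. The submitters' processing notes name HISAT 0.5.1 and HTSeq 0.6.1p1. The genome build and strand setting are not given in the sources used here. Depth was 7171455 to 10365346 counts.

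Libraries were grouped by title. Genes passing edgeR's default filter were scaled by TMM and tested with the quasi-likelihood test of edgeR 4.0.16 in R 4.3.3, with Benjamini-Hochberg adjustment over 14820 genes and no covariate. Standard errors were taken as the ratio of the log2 change to the root of the F statistic. Coordinates and canonical transcript lengths came from GENCODE 44 on GRCh37, promoters from RefSeq. The alternatives were other scalings, DESeq2 1.42.0, other filters, a replicate block, removal of a GC and length trend by loess, no fold threshold and each library left out. With 2 libraries per group an exact permutation test cannot go below 0.333. The fits were tested on simulated data.

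The members and lists were chosen with earlier results of these data known. The text names all members, list genes with an adjusted p-value under 0.05, those largest or described by role in a list, the 5 genes nearest to STEAP4, and near-identical copies. It also names the ends of some ranges, list genes with an iron-responsive element match, and SRXN1, the NRF2 target that was not tested. HFE2 was matched through its current symbol, and NCOA4 and PECAM1 were not analysed here. Some marker genes are not reported here.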

Additional observations from a re-analysis of the deposited data

How the results depend on the processing

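Of the 9 members other than STEAP4, the count called higher (1) was 0 with scaling by library size only, with the GC and length trend removed, and with this removal joined to the replicate block. It was 0 to 1 when each library was left out in turn. The count called lower (0) was 1 with scaling by library size only, 2 with no fold change threshold and 0 to 1 with a library left out. For the iron lists the count called higher (1) was 0 with the trend removed, with or without the block, 9 with no fold threshold and 0 to 2 with a library left out, and the count called lower (0) was 5 with no fold threshold and 0 to 1 with a library left out. For the copper genes and NRF2 targets together, the count called higher (1) was 0 with scaling by library size only and with the trend removed (with or without the block), 2 with no filter on low counts or no fold threshold, and 0 to 1 with a library left out. Their count called lower (0) was 1 with no fold threshold and 0 to 0 with a library left out. STEAP1 changed sign to 0.089 with the trend removed and to 0.088 in the block fit with the trend removed, and TFRC to 0.163 and 0.164. Over all genes, removing the trend gave 352 called higher and 355 lower, against 427 and 652.

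The labels do not say what replicate numbers share. Deviations of same-numbered libraries correlated (r = 0.415), a pairing of 2 against 2 that rests on the number alone. With the replicate block 492 genes were called higher and 896 lower, and the adjusted p-value from edgeR was 0.00531 for FTH1, 0.0037 for FTL and 0.0424 for SLC11A2. 2 fits, with no filter and without IFNγ replicate 2, shrank the dispersions completely, so their p-values are smaller by construction. Depth limits STEAP4, STEAP3 and CYBRD1 most, and 2 libraries per group limit every interval.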

Other observations

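STEAP proteins also reduce copper, and genes of copper handling were read in the same libraries. Of 7 genes 6 were tested and 2 passed, 1 higher and 1 lower. Of all tested genes 9.02% were higher and 11% lower with an adjusted p-value under 0.05. SLC31A1 (CTR1), the copper importer of the plasma membrane, rose by 0.50 on the log2 scale (edgeR adjusted p = 0.0221, standard error 0.113), from 173 and 191 CPM to 251 and 262 CPM. ATP7A, the copper-exporting ATPase that is mutated in Menkes disease, fell by 0.72 (edgeR adjusted p = 0.0307, standard error 0.18), from 17.8 and 18.6 CPM to 12 and 9.96 CPM. With the GC and length trend removed, SLC31A1 had a log2 fold change of 0.62 (edgeR adjusted p = 0.00725) and ATP7A -0.24 (edgeR adjusted p = 0.355). SLC31A1 did not pass without unstimulated replicate 1 (edgeR adjusted p = 0.116) or IFNγ replicate 2 (0.0544). ATP7A did not pass without unstimulated replicate 1 (0.0817), unstimulated replicate 2 (0.0759) or IFNγ replicate 2 (0.076), nor in DESeq2 (0.0794). The related ATPase ATP7B had 0.18 (edgeR adjusted p = 0.293).

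Reductases and electron carriers other than the STEAP family were read as comparators, and all 7 were tested. All 7 had positive log2 fold changes, from 0.12 for CYBA to 0.40 for CYB5R3, where the median of all tested genes was -0.007. The share of all tested genes with a positive value was not counted, and nothing is read from the shared sign. Their transcripts ran from 41.4% GC for FDX1 to 68.1% for CYBA, and the part of the GC trend in these values was not tested. Of all tested genes 9.02% were higher with an adjusted p-value under 0.05. Of these 7 only CYB5R3, a cytochrome b5 reductase, was (adjusted p = 0.0478 from edgeR), and its value was 0.11 with the GC and length trend removed. It did not pass with any 1 library left out (edgeR adjusted p from 0.0511 to 0.261) or with scaling by library size only (0.0504).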
